A study of Mus musculus with 24 samples.

Results

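Control splenic B cells were compared after 8 h and after 3 h in culture with anti-IgM, which binds and clusters the B cell receptor. The comparison takes the 3 arrays labelled WT at 8 h against the 3 labelled WT at 3 h, which are 6 of the 24 arrays of the series. The study measured total RNA of C57BL/6 mouse B cells on expression arrays, with 1 array per sample. Its 8 groups are 2 genotypes at 0, 3, 8 and 16 h of anti-IgM, with 3 biological replicates each, and its design asks what NFATc1 does in B cells that respond through their receptor. The mice were 6 to 8 weeks old, the cells came from spleen, and beads were used to enrich B cells. WT cells came from control mice, and the labels do not say whether these carried the floxed allele or the recombinase alone. KO cells, whose 6 arrays at 3 and 8 h serve here for comparison, came from mice with exon 3 of Nfatc1 flanked by loxP sites and with mb1-cre, a recombinase expressed from the Cd79a locus in cells of the B lineage. Whether mice were pooled is not stated, so that p-values measure the spread between these samples.

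Crosslinking of surface IgM activates Src-family and Syk kinases, phospholipase C and calcium entry, and through them the NFAT, NF-kB and MAP kinase pathways. Early transcription factors and their feedback inhibitors are induced within minutes to hours and are mostly short-lived. Genes for growth, namely those of ribosome assembly, nutrient uptake, lipid synthesis and mitochondria, follow before the cell enters S phase. The interval from 3 to 8 h lies between these phases.

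All 9 B cell markers with a probe set, Cd79a, Cd79b, Ms4a1 and Ighm among them, lay above the filter level on all 6 arrays, and their summed linear signal was 79145 to 91973 at 3 h and 80888 to 90797 at 8 h. The filter level is the signal that 40% of the probe sets of an array do not exceed, a log2 signal of 5.505 to 5.72 on these arrays. Correlations between arrays of the same time were 0.9398 to 0.9472, and between the times 0.9196 to 0.9359. The arrays labelled replicate 2 stood apart at both times: they had a male-type pattern of sex-linked transcripts, and the other 4 a female-type pattern. Counts are therefore also given without the WT arrays numbered 2 where they differ by more than 1.5-fold.

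Of 14318 genes tested, 2273 (15.9%) differed between 8 and 3 h at a limma Benjamini-Hochberg adjusted p under 0.05, which is the call used throughout. Higher at 8 h were 1475 genes (10.3%), and lower were 798 (5.57%). Counts in the gene lists below are to be read against these shares. At least 2-fold were 399 of the higher (2.79% of genes tested) and 211 of the lower (1.47%). With values under the filter level raised to it, these counts were 349 and 189. The genes that rose most include Adk, Hadh and Acot7 of purine and fatty acid metabolism, the xenobiotic-metabolising Cyp1a1, and the interferon-stimulated Oas2, Stat2 and Trim30a. The genes that fell most include the inducible heat shock proteins Hspa1a and Hspa1b, the cholesterol exporters Abcg1 and Abca1, the checkpoint ligand Cd274 and the cytokine receptor Il7r. In bulk RNA, fewer cells of a type and less RNA per cell cannot be told apart.

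**Figure D1:**
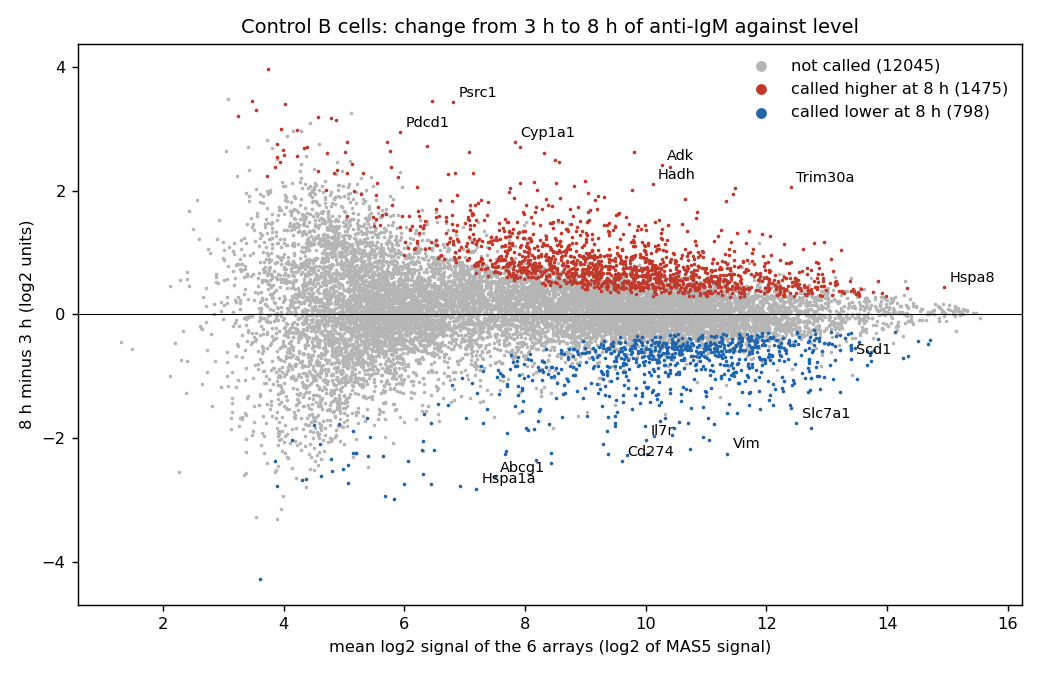
Difference between 8 h and 3 h (vertical axis, log2 units) against the mean log2 signal of the 6 control arrays (horizontal axis), with 1 point for each of the 14318 genes. Red points are the 1475 genes called higher at 8 h, blue points the 798 called lower and grey points those not called.

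The 3 and 3 values did not overlap in 1370 of the 1475 higher genes and 763 of the 798 lower ones, against 2675 (18.7%) and 1673 (11.7%) of all genes tested. The median difference over all genes was 0.10 on the log2 scale, with 57.7% of genes positive. When each array was instead scaled to its median, the calls fell to 876, and 453 of these (51.7%) were higher against 64.9% with the deposited scaling. Without the 8 h array of replicate 1 there were 1425 calls, without the 3 h array of replicate 2 there were 1454, and without the WT arrays numbered 2 there were 1449.

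Several of the higher genes with the largest change belong to metabolic pathways. Adk encodes adenosine kinase, which returns adenosine to the nucleotide pool. Its log2 signal was 9.31, 8.88 and 8.99 at 3 h and 11.59, 10.99 and 11.83 at 8 h, a difference of 2.41 ± 0.20 (SE; limma adjusted p = 5.75e-08). The lowest 8 h array lay well above the highest 3 h array. Its most variable probe set, dimmer than the one used, gave -0.56 with limma adjusted p = 0.84. Hadh, a dehydrogenase of mitochondrial fatty acid oxidation, gave 9.13, 8.98 and 9.08 at 3 h and 11.27, 10.79 and 11.44 at 8 h. The difference in Hadh was 2.10 ± 0.16, and its mean at 0 h had been 11.15, so that the 8 h level was near that of unstimulated cells. Acot7, an acyl-CoA thioesterase, read 7.29, 7.74 and 6.95 at 3 h and 10.04, 9.52 and 9.80 at 8 h, with every 8 h value above every 3 h value. Its difference was 2.46 ± 0.31 (limma adjusted p = 1.17e-05). Hacl1, a lyase of peroxisomal fatty acid breakdown, rose by 2.28 ± 0.30, or by 2.10 when its 2 values under the filter level at 3 h were raised to it.

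Cyp1a1, a cytochrome P450 known as a target of the aryl hydrocarbon receptor, read 6.65, 6.83 and 5.86 at 3 h. At 8 h its values were 10.24, 9.97 and 7.48, so that the 3 arrays differed widely but none overlapped with 3 h. The difference was 2.78 ± 0.77 (limma adjusted p = 0.0154), and it lost the call without the 3 h array of replicate 3 (adjusted p = 0.0646), the 8 h array of replicate 1 (0.0973), that of replicate 2 (0.0620), or the WT arrays numbered 2 (0.11). Mean Cyp1a1 was 5.60 at 0 h and 10.76 at 16 h. The receptor gene itself, Ahr, named after its values were seen, had a mean of 9.15 at 0 h, then 12.94 at 3 h and 13.12 at 8 h, with a difference of 0.18 ± 0.20 in the interval (limma adjusted p = 0.665).

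Psrc1, which encodes a microtubule-associated protein of the spindle, had a mean of 7.13 at 0 h. It was under the filter level at 3 h on average and bright at 8 h. It read 4.26, 6.04 and 4.98 at 3 h and 8.39, 7.95 and 9.23 at 8 h, and was at least 7.02-fold higher at 8 h (limma adjusted p = 3.2e-05). In such bounds each value under the filter level was raised to it, since values under it have no order. Tacc2, of a family of centrosome proteins, read 6.19, 7.38 and 6.14 at 3 h and 9.16, 9.46 and 9.18 at 8 h. Its difference was 2.70 ± 0.46, and its WT mean was under the filter level at 0 h and 10.85 at 16 h. Rgs10, an inhibitor of G protein signalling, rose by 1.85 ± 0.29, and Dtx4, a ubiquitin ligase of the Deltex family, by 2.15 ± 0.31. With values under the filter level raised to it, the 25 genes ranked highest spanned differences of 1.85 to 2.81.

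**Figure D2:**
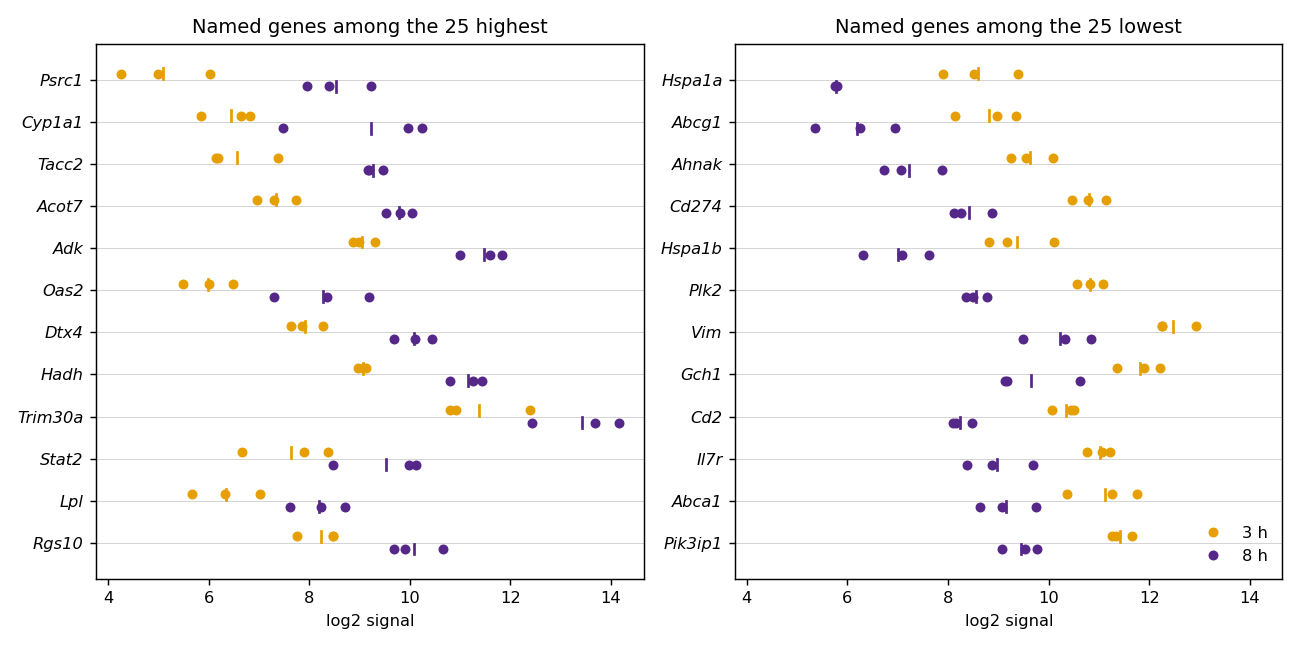
Log2 signal of 24 of the 50 top-ranked genes on each of the 3 arrays at 3 h (orange) and at 8 h (purple); vertical ticks mark the group means. No gene shown has overlapping groups; Trim30a and Stat2 have the narrowest gaps, and Hspa1a at 8 h the tightest values.

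Among the genes that fell, the HSP70 chaperones Hspa1a and Hspa1b, which heat and proteotoxic stress induce, were both among the 25 lowest. Hspa1a read 8.52, 9.39 and 7.89 at 3 h and 5.76, 5.80 and 5.77 at 8 h, near the filter level and without overlap. The difference in Hspa1a was -2.82 ± 0.76 (limma adjusted p = 0.0128), and the mean had been 11.27 at 0 h. Hspa1b fell by 2.36 ± 0.64, from a mean of 9.36 to 7.01, after 13.39 at 0 h. The call of Hspa1a was lost without the 3 h array of replicate 2 (adjusted p = 0.0720) and without the WT arrays numbered 2 (0.099). For Hspa1b these were 0.0771 and 0.19, and 0.0576 without the 8 h array of replicate 2. Hspa8, the constitutive member of the family and the brightest of the chaperone list, had means of 14.72 at 3 h and 15.16 at 8 h (limma adjusted p = 0.0348), a call lost when any array but replicate 1 at 3 h was left out (0.0755 to 0.149) and with median scaling (0.21).

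Cd274, the gene for the inhibitory ligand PD-L1, read 10.47, 11.15 and 10.77 at 3 h and 8.26, 8.87 and 8.13 at 8 h. Its fall of -2.38 ± 0.24 (limma adjusted p = 7.93e-07) left no overlap. Vim, which encodes vimentin of the intermediate filaments, read 12.26, 12.92 and 12.25 at 3 h and 9.50, 10.84 and 10.32 at 8 h, a difference of -2.26 ± 0.29. The scaffold gene Ahnak fell by 2.41 ± 0.31, though its most variable probe set gave 0.05 (adjusted p = 0.99). Gch1, the entry enzyme of tetrahydrobiopterin synthesis, fell by 2.18 ± 0.30. From 9.54 at 0 h the mean reached 11.83 at 3 h, and it was 9.65 at 8 h and 9.40 at 16 h. Pik3ip1, an inhibitor of PI3 kinase, read 11.25, 11.34 and 11.66 at 3 h and 9.08, 9.76 and 9.52 at 8 h, and its mean at 16 h was 6.28.

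Il7r, the receptor chain for interleukin 7, read 11.06, 11.22 and 10.77 at 3 h and 8.38, 9.69 and 8.87 at 8 h (difference -2.04 ± 0.40, limma adjusted p = 0.00109), after a mean of 7.50 at 0 h. Cd2, an adhesion receptor of T cells and mouse B cells, fell from a mean of 10.34 to 8.24. The 13 T cell markers with a probe set, Cd2 among them, summed to 1767 to 2174 at 3 h and 1148 to 1379 at 8 h. Of these, 4 lay above the filter level on all 6 arrays, and Cd3d, Cd3e and Cd4 were under it on all 6. Markers of neutrophils, 4 of 7 above the level on all 6 arrays, summed to 1812 to 2644 and 817 to 1521. Macrophage markers, 6 of 12 above it, summed to 2013 to 6554 and 1984 to 4985. With values under the filter level raised to it, the median difference was 0.07 over the 11 T cell genes tested and -0.93 over the 6 neutrophil genes. None of the 6 neutrophil genes was called, and the part of such cells in the falls of Vim, Ahnak and Cd2 was not tested.

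For some genes the probe sets disagreed. More than 1 probe set measured 1372 of the called genes. In 241 of these a second probe set had the opposite sign, and in 6 that probe set was called as well. Arhgap15, a GTPase-activating protein for Rac, is among the 25 lowest with -2.26 ± 0.18, while its most variable probe set gave 1.93 (limma adjusted p = 0.0081). Gphn, which encodes gephyrin, is among the 25 highest with 1.96 ± 0.16 and also has a called probe set of opposite sign. The direction of such genes depends on the probe set. With the most variable probe set of a gene in place of the brightest, the limma adjusted p was 0.211 for Psrc1, 0.132 for Abcg1, 0.168 for Abca1, 0.157 for Lss, 0.286 for Mnt, 0.136 for Gpr183, 0.0719 for S1pr3, 0.364 for Ebf1, 0.112 for Irf4, 0.86 for Tcf4, 0.315 for Ezr, 0.46 for Slc2a3, 0.112 for Bcat1, 0.228 for Psmb8 and 0.297 for Ddx10.

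Several immediate early transcription factors fell from their 3 h level. Taken over all 31 genes of the list, that level was not above the one of unstimulated control cells (mean 10.07 against 10.12). Of 31 tested, 7 were lower, 0 higher and 24 not called, against 5.57% and 10.3% of all genes, and the median difference was -0.74. The list's mean on single arrays was 9.86, 10.40 and 9.95 at 3 h and 9.50, 9.47 and 9.01 at 8 h, with the array of replicate 2 highest at 3 h. Mafk, a small MAF factor, read 10.34, 10.74 and 10.80 at 3 h and 8.97, 9.43 and 9.18 at 8 h, a difference of -1.43 ± 0.29 (limma adjusted p = 0.00154). Csrnp1, a nuclear factor of the early response, fell by 1.31 ± 0.23 with the probe set used and gave 0.31 with its most variable one. Egr1, the zinc finger factor of MAP kinase signalling, read 13.19, 13.25 and 12.73 at 3 h and 12.21, 12.45 and 12.35 at 8 h. Its difference of -0.72 ± 0.23 (limma adjusted p = 0.0371) did not hold without the 3 h array of replicate 1 (0.113) or 2 (0.146), or the 8 h array of replicate 1 (0.132) or 3 (0.0864), or the WT arrays numbered 2 (0.19). Egr3, the brightest of the list, was at 13.73 at 3 h and 13.39 at 8 h and was not called (adjusted p = 0.253). In a fit of the 6 arrays alone 12 were lower, and in a fit of the WT arrays alone 16. The count of 7 became 2 without the 3 h array of replicate 2, 4 without the 8 h array of replicate 1 or of replicate 3, and 3 without the WT arrays numbered 2.

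Some feedback inhibitors of signalling were lower too. Among 15 inhibitors of the MAP kinase pathway, 3 were lower (1 without the 8 h array of replicate 3) and 0 higher. Dusp1, a phosphatase of MAP kinases, read 9.87, 11.03 and 10.30 at 3 h and 8.42, 8.79 and 8.58 at 8 h, without overlap (difference -1.80 ± 0.38, limma adjusted p = 0.00186). Its mean had been 13.45 at 0 h. Of 13 factors of messenger RNA decay 3 were lower. Their count was 1 without the 8 h array of replicate 3 or with median scaling and 5 without the 8 h array of replicate 2. They include Zfp36, which encodes the AU-rich element binding protein tristetraprolin, with means of 11.74 and 10.74; its call was lost without the WT arrays numbered 2 (0.13). The chemokine gene Ccl4 fell by 1.72 ± 0.36, and 3 of 26 cytokine genes (11.5%) were lower and 1 (3.85%) higher. The higher count was 0 without the 3 h array of replicate 3 or the 8 h array of replicate 1 or 2, and 3 without the 8 h array of replicate 3. Nfatc1 itself read 13.21, 13.12 and 13.31 at 3 h and 12.35, 12.29 and 12.71 at 8 h, a difference of -0.77 ± 0.13 (limma adjusted p = 0.000193), with a mean of 11.92 at 0 h and 11.87 at 16 h. Of 18 genes of the NFAT and calcium list, 2 were higher and 2 lower, 11.1% each, against 10.3% and 5.57% of all genes. The higher share was thus near that of all genes. When any 1 of the 6 arrays was left out, 0 or 1 were higher, and the lower count was 1 without the 3 h array of replicate 2 or 3 or the 8 h array of replicate 1 or 3.

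MYC, the transcription factor that drives growth genes, and its network partner MNT, a repressor at the same DNA element, fell together. Myc read 13.28, 13.53 and 13.56 at 3 h and 12.23, 12.64 and 12.46 at 8 h, without overlap. The difference was -1.01 ± 0.30 (limma adjusted p = 0.0223), but adjusted p was 0.0583 to 0.0960 without the 3 h array of replicate 2 or 3 or the 8 h array of replicate 1 or 3, 0.07 with median scaling and 0.091 without the WT arrays numbered 2. Mnt read 11.25, 11.59 and 11.19 at 3 h and 9.75, 10.68 and 9.93 at 8 h, a difference of -1.22 ± 0.19. Of 11 members of the MYC, MAX and MXD network, 4 (36.4%) were lower and 1 (9.09%) higher. The lower count was 2 without the 3 h array of replicate 2 or 3, the 8 h array of replicate 1 or 3, or the WT arrays numbered 2, and 1 with median scaling. The higher count was 0 without the 3 h array of replicate 1 or the 8 h array of replicate 3, and with median scaling.

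The E-box bound by MYC and its partners, and by other factors, has the letters CACGTG, which read the same on both strands. It occurs in the 250 bases before the start of 8.03% of the 11530 tested genes with a RefSeq promoter entry. The share was 8.05% of the genes called higher and 15.1% of the 655 called lower. Other motifs were searched too, and only this one and the interferon element below are shown. Ribosome biogenesis factors had the E-box in 3 of 55 promoters (5.45%), and in 0 of the 12 called. Immediate early factors had it in 4 of 23 (17.4%), and in 2 of the 5 called. A part of MYC in the falls was not tested. Examples of lower genes with the element are shown, with the E-box in capitals. All lie on build GRCm38.p6, the positions being chr11:74830776-74830831 on the plus strand for Mnt, chr17:26508568-26508623 on the minus strand for Dusp1 and chr5:139791303-139791358 on the plus strand for Mafk, within the promoters and before the annotated starts.
Mnt: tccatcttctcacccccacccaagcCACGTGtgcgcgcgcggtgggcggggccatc
Dusp1: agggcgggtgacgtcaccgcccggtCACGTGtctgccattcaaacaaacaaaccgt
Mafk: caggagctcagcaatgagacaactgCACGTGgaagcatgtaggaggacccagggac
A match of letters is a description and does not show binding. The shares for all 27025 promoters of the table and for the tested genes differ (6.05% and 8.03%), so the tested genes are the closer background.

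Activation receptors, cytokine receptors and homing receptors were lower more often than higher. Of 25 activation and costimulatory receptors 9 were lower and 3 higher (median difference -0.37). Cd86, the costimulatory ligand of CD28, read 12.93, 13.05 and 12.99 at 3 h and 11.77, 12.08 and 11.70 at 8 h, after 9.75 at 0 h. Its difference was -1.14 ± 0.22 (limma adjusted p = 0.000938). Pdcd1lg2, the gene of the second PD-1 ligand, fell by 1.16 ± 0.19. The receptor of both PD-1 ligands, Pdcd1, moved the other way, with 4.47, 3.50 and 5.39 at 3 h and 7.69, 7.07 and 7.44 at 8 h. It was at least 3.49-fold higher at 8 h (limma adjusted p = 0.00529; 0.072 without the WT arrays numbered 2) and reached a mean of 10.30 at 16 h. The 9 lower calls became 5 without the 3 h array of replicate 1 or 2 or the WT arrays numbered 2, and 4 without the 8 h array of replicate 3. The 3 higher calls became 1 without the 3 h array of replicate 2 or the WT arrays numbered 2, and with median scaling. Of 30 interleukin receptors and SOCS genes 7 were lower and 2 higher, with 4 lower when any of the arrays that reduced the 9 calls was left out. The 2 higher calls became 1 without the 3 h array of replicate 1 or 2, and 0 without the 8 h array of replicate 1 or 3 or with median scaling.

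Among 21 receptors that guide B cells within lymphoid tissue, 9 were lower and 3 higher (1 with median scaling), with a median of -0.42. Without the WT arrays numbered 2, 5 were lower. Gpr183, the oxysterol receptor EBI2, read 13.14, 13.02 and 13.23 at 3 h and 11.29, 11.88 and 11.81 at 8 h, a difference of -1.47 ± 0.23. Cxcr5, the receptor for the follicle chemokine CXCL13, read 12.07, 12.24 and 12.21 at 3 h and 11.33, 11.34 and 10.92 at 8 h (limma adjusted p = 0.000691). Both genes had 8 h values below all 3 h values. The sphingosine phosphate receptor S1pr3 fell by 1.20 ± 0.23, and with Cr2 and the scavenger receptor Cd36 (-1.75 ± 0.28) it belongs to 3 of 9 markers of marginal zone B cells that were lower. Mzb1, a chaperone of antibody-producing cells on the same list, was higher by 0.99 ± 0.15. The 9 markers summed to 23234 to 25603 at 3 h and 17916 to 19652 at 8 h.

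B cell receptor signalling genes split. Of 33 tested, 9 (27.3%) were higher and 7 (21.2%) lower, against 10.3% and 5.57% of all genes. With median scaling 4 were higher, and without the WT arrays numbered 2, 4 were lower. Vav3, a guanine nucleotide exchange factor, read 8.66, 8.33 and 8.02 at 3 h and 10.35, 9.64 and 10.13 at 8 h, a difference of 1.70 ± 0.25 (limma adjusted p = 5.51e-05). Cd81, a tetraspanin of the cell surface, rose by 1.06 ± 0.17, and the inhibitory Fc receptor gene Fcgr2b by 1.03 ± 0.16. The receptor chain Cd79b went from 14.73 at 0 h to 12.49 at 3 h and 13.24 at 8 h (limma adjusted p = 0.00745; 0.053 with median scaling). Against these, the Src-family kinase gene Fyn read 13.16, 13.26 and 13.08 at 3 h and 11.40, 12.14 and 11.40 at 8 h. Fyn differed by -1.52 ± 0.18 (limma adjusted p = 5.26e-06), from 10.46 at 0 h. Blk, another kinase of the family, fell by 1.04 ± 0.13. Inpp5d, the gene of the inositol phosphatase SHIP1, had the closest replicates, with 12.15, 12.15 and 12.03 at 3 h and 11.01, 11.00 and 10.96 at 8 h. The complement receptor Cr2 fell by 1.08 ± 0.17.

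Factors of B cell identity also went both ways, with 6 of 27 (22.2%) higher and 5 (18.5%) lower. Id3, an inhibitor of E proteins, read 9.80, 9.86 and 9.97 at 3 h and 11.54, 10.91 and 11.57 at 8 h (1.46 ± 0.17), and Tcf4, an E protein, rose by 1.26 ± 0.16. Ebf1, a factor of early B cell commitment, fell by 1.46 ± 0.31, and Irf4, which directs activated B cells toward class switching and plasma cells, by 1.05 ± 0.24 after a 3 h mean of 14.02. The higher count was 3 with median scaling and without the 3 h array of replicate 1 or the 8 h array of replicate 1 or 3. The lower count was 2 or 3 when any of these arrays, the 3 h array of replicate 2 or the WT arrays numbered 2 were left out. Of 13 genes of the BCL2 family, Bcl2, the survival factor, was the only gene called in the deposited scaling. It read 8.24, 8.41 and 9.09 at 3 h and 9.65, 9.28 and 10.21 at 8 h (1.14 ± 0.22, limma adjusted p = 0.000835), after 11.20 at 0 h.

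MHC class II genes, which present antigen to helper T cells, were lower. Of 11 tested 6 were lower and 0 higher, with a median of -0.48. H2-Ob, a chain of the peptide-exchange regulator H2-O, read 12.97, 13.06 and 13.14 at 3 h and 11.99, 12.20 and 12.15 at 8 h, a difference of -0.95 ± 0.15 (limma adjusted p = 0.000135). Ciita, the transactivator of the class, read 9.88, 10.13 and 9.99 at 3 h and 9.03, 9.33 and 8.81 at 8 h. Its adjusted p of 0.0113 became 0.0510 without the 3 h array of replicate 2 and 0.0621 without the 8 h array of replicate 3. H2-Ab1 differed by -0.67 ± 0.19 (0.0168), with 0.0582 to 0.131 without the 3 h array of replicate 2 or the 8 h array of replicate 1 or 3. H2-Aa, the brightest of the list, had means of 15.27 and 15.01 and was not called (0.494). Without the 3 h array of replicate 2, or the 8 h array of replicate 3, 2 genes were lower. From 13.73 at 0 h the list's mean moved to 12.62 at 3 h and 12.18 at 8 h, with 11.07 at 16 h.

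**Figure D3:**
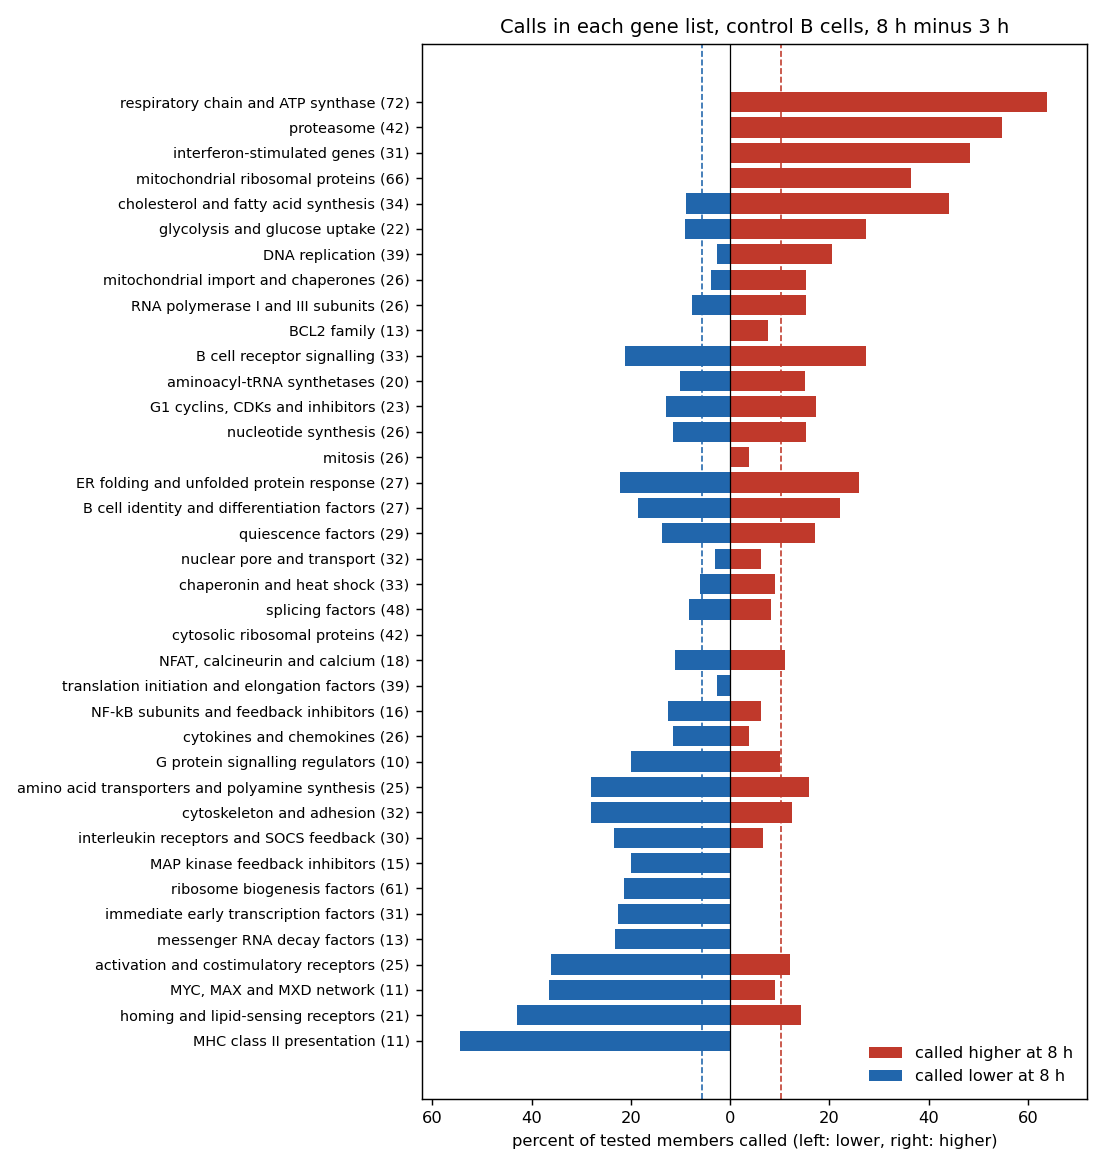
Percent of the tested members of 38 gene lists called higher (red, right) or lower (blue, left) at 8 h; the number tested stands in brackets and dashed lines mark the 10.3% and 5.57% of all genes. The respiratory chain (63.9%) and the proteasome (54.8%) have the highest shares called higher, and MHC class II (54.5%) the highest share called lower.

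The genes of the mitochondrial respiratory chain and ATP synthase rose in most cases. Of 72 tested, 46 were higher and 0 lower, and 68 were positive. The median difference was 0.44 against 0.10 over all genes. Uqcr11, a subunit of complex III, read 10.31, 9.90 and 10.14 at 3 h and 11.18, 11.12 and 11.21 at 8 h, a difference of 1.05 ± 0.13 (limma adjusted p = 1.32e-05). Ndufc1 of complex I read 11.59, 11.28 and 11.29 at 3 h and 12.23, 12.16 and 12.19 at 8 h. Neither gene had overlapping groups. Ndufv1, which carries the NADH-binding site of complex I, rose by 0.74 ± 0.12, and Atp5g1, a subunit of the ATP synthase ring, by 0.73 ± 0.13 (limma adjusted p = 0.000414; 0.096 with median scaling). The count of 46 was 5 with median scaling, where the median of all genes was 0.01, and 21 without the WT arrays numbered 2. The median difference of the list lay between 0.355 and 0.521 in all 21 alternatives, median scaling included. The list's means over the course were 11.92 (0 h), 12.04 (3 h), 12.47 (8 h) and 12.83 (16 h).

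Mitochondrial ribosomal proteins moved the same way, with 24 of 66 higher and 0 lower (median 0.30). Mrps25, of the small subunit, read 8.47, 7.94 and 8.64 at 3 h and 9.80, 9.56 and 9.66 at 8 h, a difference of 1.32 ± 0.16. Their count was 7 with median scaling and 14 without the WT arrays numbered 2, while their median lay between 0.223 and 0.354 in all 21 alternatives. Cytosolic ribosomal proteins did not: of 42 tested 0 were called, with a median of 0.07. Rps29, the brightest of them, had means of 15.56 and 15.50.

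Ribosome biogenesis factors, which assemble ribosomes in the nucleolus, were lower in 13 of 61 cases and higher in 0, with a median of -0.26. Ddx10, an RNA helicase of the nucleolus, read 11.75, 11.77 and 11.72 at 3 h and 11.01, 11.34 and 11.14 at 8 h, a difference of -0.58 ± 0.13 (limma adjusted p = 0.00398; 0.11 with median scaling). Npm1, the nucleolar chaperone nucleophosmin and the brightest of the list, had means of 14.95 and 14.97. The list's mean was 10.35 at 0 h and 12.03 at 3 h, and it was 11.79 at 8 h and 11.90 at 16 h. The 8 h mean thus remained above that at 0 h. With median scaling 0 of the 61 were called, and 7 or 8 without the 3 h array of replicate 1 or 2, and 4 without the 8 h array of replicate 1 or of replicate 3. The median of the list lay between -0.336 and -0.186 in all 21 alternatives.

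The proteasome, which degrades ubiquitinated proteins, had 23 of 42 genes higher and 0 lower, with a median of 0.40. Psmb3, a subunit of the core, read 12.08, 11.74 and 11.90 at 3 h and 12.70, 12.75 and 12.77 at 8 h, a difference of 0.83 ± 0.10 (limma adjusted p = 9.03e-06). Psmb9 and Psmb8, the immunoproteasome subunits that interferon induces, rose by 1.05 ± 0.24 and 0.87 ± 0.17. Psmb9 read 9.91, 9.67 and 9.40 at 3 h and 11.25, 9.98 and 10.91 at 8 h, lowest at 8 h on the array of replicate 2, and its adjusted p was 0.069 with median scaling. The count of 23 was 2 with median scaling, 15 without the 3 h array of replicate 3 or the 8 h array of replicate 1, and 11 without the WT arrays numbered 2. The proteasome median lay between 0.317 and 0.409 in all 21 alternatives.

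Cholesterol and fatty acid synthesis genes were higher and the exporters of cholesterol were lower. Of 34 tested, 15 were higher and 3 lower, and the median was 0.56. Mvk, mevalonate kinase, read 5.92, 6.96 and 6.54 at 3 h and 8.60, 7.91 and 8.39 at 8 h (1.82 ± 0.33, limma adjusted p = 0.000495). Lss, which closes the sterol ring, read 8.84, 8.65 and 8.64 at 3 h and 10.16, 10.39 and 9.59 at 8 h, without overlap. Dhcr7, the last enzyme of cholesterol synthesis, rose by 1.46 ± 0.24, and Elovl6, an elongase of fatty acids, by 1.60 ± 0.26. The 3 lower genes were the exporters Abcg1 and Abca1 and the desaturase Scd1. Abcg1 read 8.13, 8.98 and 9.35 at 3 h and 6.24, 5.35 and 6.95 at 8 h, a difference of -2.64 ± 0.51 (limma adjusted p = 0.00102), or -2.54 with its 8 h value under the filter level raised to it. Abca1 read 10.36, 11.26 and 11.75 at 3 h and 9.75, 8.64 and 9.08 at 8 h, after a mean of 12.42 at 0 h. Scd1 fell by 0.72 ± 0.15 (adjusted p = 0.064 with median scaling). The count of 15 was 7 with median scaling and 9 without the 8 h array of replicate 1 or the WT arrays numbered 2.

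Nutrient genes moved both ways. Of 25 genes of amino acid transport, amino acid synthesis and polyamines, 7 (28%) were lower and 4 (16%) higher. Slc7a1, a carrier of cationic amino acids, read 13.37, 13.40 and 13.34 at 3 h and 11.49, 11.86 and 11.48 at 8 h, a difference of -1.76 ± 0.14 (limma adjusted p = 5.03e-08). Slc7a5, the light chain of the LAT1 carrier, fell by 1.40 ± 0.25. Besides carriers, the lower genes include Mthfd2, an enzyme of mitochondrial folate metabolism, and Azin1, a regulator of polyamine synthesis, with differences of -0.67 (adjusted p = 0.0609 with median scaling) and -0.49. The call of Azin1 was lost with median scaling (0.184), with its most variable probe set (0.927), without the 3 h array of replicate 1 (0.132) or 2 (0.0514), without the 8 h array of replicate 2 (0.0948) or 3 (0.0839), and without the WT arrays numbered 2 (0.0994). Bcat1, which transaminates branched-chain amino acids, rose by 1.70 ± 0.40 from a 3 h mean of 7.89, and the serine synthesis genes Phgdh and Psph by 0.95 ± 0.18 and 1.17 ± 0.23. The lower count was 3 with median scaling and 4 without the 3 h array of replicate 1 or the 8 h array of replicate 3. Among 22 genes of glycolysis, 6 were higher (1 with median scaling) and 2 lower, the latter Slc2a3 and Hk2 (1 with median scaling, without the 3 h array of replicate 2 or without the 8 h array of replicate 1 or 3). Aldoa, an aldolase, rose by 0.84 ± 0.15, while Slc2a3, a glucose carrier, fell by 1.20 ± 0.16 and Hk2, a hexokinase, by 0.69.

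Of 39 DNA replication genes 8 (20.5%) were higher, against 10.3% of all genes, and 1 was lower. With median scaling 4 were higher, and without the 3 h array of replicate 3, 2 were lower. Of 26 mitosis genes 1 (3.85%) was higher and 0 lower, and that call was lost without the 3 h or the 8 h array of replicate 2 or 3. Gins2, of the replicative helicase, read 6.79, 6.51 and 7.15 at 3 h and 8.17, 8.08 and 7.71 at 8 h (1.17 ± 0.24, limma adjusted p = 0.00154). Its WT mean was 9.62 at 16 h. Pola1, a polymerase subunit, rose by 1.00 ± 0.20. Pcna, the sliding clamp and the brightest of the list, had means of 14.18 and 14.21. Of 32 genes of cytoskeleton and adhesion 9 were lower and 4 higher (2 with median scaling). Ezr, the membrane linker ezrin, read 13.85, 13.95 and 13.74 at 3 h and 12.55, 12.55 and 12.67 at 8 h (-1.26 ± 0.15), and Tubb5, a tubulin, rose by 1.14 ± 0.14. Of 27 genes of ER folding and the unfolded protein response, 7 (25.9%) were higher and 6 (22.2%) lower. Chac1, a glutathione-degrading target of ATF4, fell by 1.48 ± 0.36. Both counts rest on single arrays. The higher count was 1 without the 3 h array of replicate 2, 4 without that of replicate 3, 3 without the 8 h array of replicate 1, 2 without the WT arrays numbered 2 and 0 with median scaling. The lower count was 2 without the 3 h array of replicate 1 or 2, without the 8 h array of replicate 3, without the WT arrays numbered 2, and with median scaling.

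Interferon-stimulated genes gave the largest median of the lists. Of 31 tested, 15 were higher and 0 lower, 30 were positive, and the median difference was 1.497, or 1.37 with values under the filter level raised to it. In only 4 of the 15 did the groups not overlap, namely Oas2, Trim30a, Stat2 and Bst2. OAS2 senses double-stranded RNA, TRIM30A belongs to a family of interferon-induced ring finger proteins, STAT2 carries the interferon signal and BST2 tethers virus particles.

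Stat2 read 8.37, 6.66 and 7.89 at 3 h and 10.12, 8.46 and 9.98 at 8 h, a difference of 1.88 ± 0.36 (limma adjusted p = 0.00087). The array of replicate 2 was lowest at both times. Trim30a read 12.40, 10.80 and 10.91 at 3 h and 14.16, 12.44 and 13.69 at 8 h, with only a narrow gap between the highest 3 h and the lowest 8 h array. Oas2 read 6.48, 6.00 and 5.49 at 3 h and 9.20, 7.29 and 8.35 at 8 h (2.29 ± 0.37). Bst2 was tight at 3 h, with 8.35, 8.19 and 8.31, and read 10.30, 8.86 and 10.23 at 8 h. Mx1, an antiviral GTPase named after its values were seen, read 8.46, 5.89 and 6.68 at 3 h and 10.81, 7.89 and 10.18 at 8 h. Its groups overlapped, since the 8 h array of replicate 2 lay below the 3 h array of replicate 1, and its adjusted p of 0.00778 became 0.0648 without the 3 h array of replicate 2, 0.0696 without the 8 h array of replicate 1 and 0.057 in a fit of the 6 arrays alone. Ifi35, the brightest of the list, had means of 12.83 and 13.43 and was not called (0.0936).

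The mean of the 31 genes was 8.30, 7.36 and 7.42 at 3 h and 9.89, 7.90 and 9.71 at 8 h. Within arrays of the same number the mean differed by 1.58, 0.54 and 2.29 for replicates 1, 2 and 3, and 30, 23 and 31 of the 31 genes were higher at 8 h. The count of 15 was 25 without the 8 h array of replicate 2, 21 without the WT arrays numbered 2 and 24 with the replicate number as a block. It was 7 with median scaling, without the 3 h array of replicate 2 or without the 8 h array of replicate 3, and 4 without the 8 h array of replicate 1 or in a fit of the 6 arrays alone. At 0 h the list's WT mean was 9.19, and at 16 h it was 7.39, so that its 8 h level, 9.16, lay near that of unstimulated cells and above the times before and after. Slfn5, outside the list and also known to respond to interferon, was at least 5.24-fold higher at 8 h, with 4.47, 3.63 and 6.09 at 3 h and 8.92, 6.34 and 9.28 at 8 h.

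Many of these genes carry an interferon-stimulated response element (ISRE), searched here as GAAA, any 2 bases and GAAA, which reads TTTC, any 2 bases and TTTC on the other strand. In the 250 bases before the start it occurred in 2.52% of all tested genes, in 12 of 23 list members with a promoter entry (52.2%) and in 8 of the 11 of these that were called higher. Shown are the matches, in capitals, in 3 genes whose groups did not overlap. They come from RefSeq promoters of build GRCm38.p6 and lie at chr10:128270251-128270310 on the plus strand for Stat2, chr7:104465195-104465254 on the minus strand for Trim30a and chr8:71537562-71537627 on the minus strand for Bst2, where 2 matches overlap.
Stat2: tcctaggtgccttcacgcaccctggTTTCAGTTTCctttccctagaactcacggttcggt
Trim30a: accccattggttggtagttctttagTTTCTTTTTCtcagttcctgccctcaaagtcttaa
Bst2: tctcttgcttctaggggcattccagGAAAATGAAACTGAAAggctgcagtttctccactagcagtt
The element is a defining feature of such genes, and its presence does not tell whether it was in use in these cells.

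**Figure D4:**
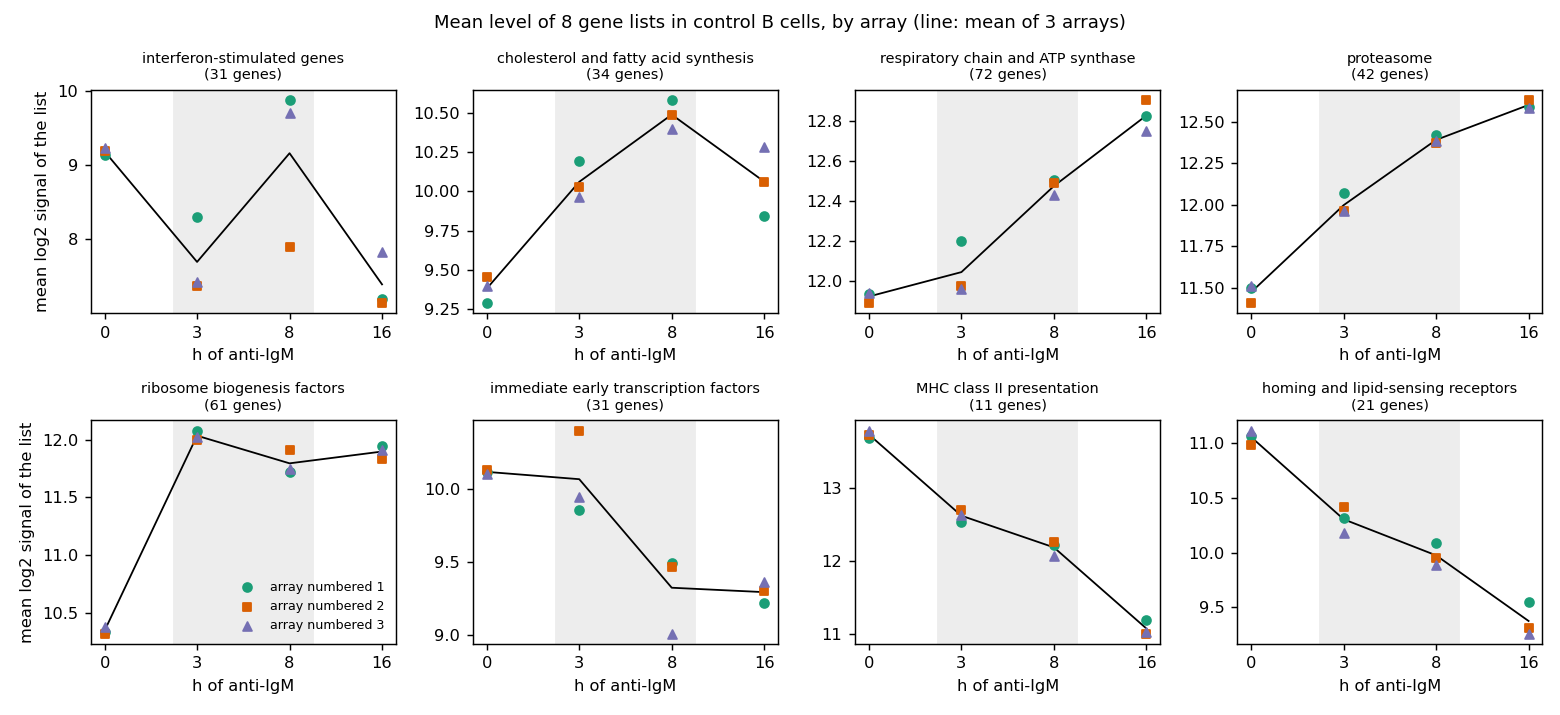
Mean log2 signal of 8 gene lists on each of the 12 control arrays at 0, 3, 8 and 16 h of anti-IgM (symbols mark the array number, the line joins the means of 3 arrays, grey marks the interval compared). Interferon-stimulated genes dip at 3 h and return at 8 h except on the array numbered 2, ribosome biogenesis factors peak at 3 h, and respiratory chain and proteasome genes rise through all 4 times.

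The same interval in NFATc1-deficient cells uses other arrays and gave 2750 calls (19.2%), 1890 higher (13.2%) and 860 lower (6.01%). Of the 1475 genes higher in control cells, 1204 (81.6%) were also called higher in KO cells, which is 63.7% of the KO list. Of the 798 lower, 607 (76.1%) were called lower, which is 70.6% of the KO list. No gene was called in opposite directions, and 99.3% and 99.2% had the same sign. The median difference was 0.74 in both genotypes for the higher genes, and -0.69 in WT and -0.65 in KO for the lower.

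Of the 50 top-ranked genes, 48 were called in the same direction in KO cells. Ddias, a gene of the DNA damage response, was 1 of the 2 others, with 2.63 ± 0.45 in WT, or 2.13 with its 3 h value under the filter level raised to it, and 0.64 in KO (adjusted p = 0.383). Pdcd1, at least 3.49-fold higher at 8 h in WT cells, was under the filter level on average at both times in KO cells and was not called there (adjusted p = 0.758). The difference between the genotypes was tested gene by gene, and limma called 0 of 14318 genes, with 332 at an unadjusted p under 0.05 and 0 calls under each alternative tried. A genotype difference in Pdcd1 or Ddias was therefore not shown. By list, interferon-stimulated genes had 15 higher calls in KO cells, the respiratory chain 55, the proteasome 24 and mitochondrial ribosomal proteins 33, and ribosome biogenesis factors had 21 lower calls.

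**Figure D5:**
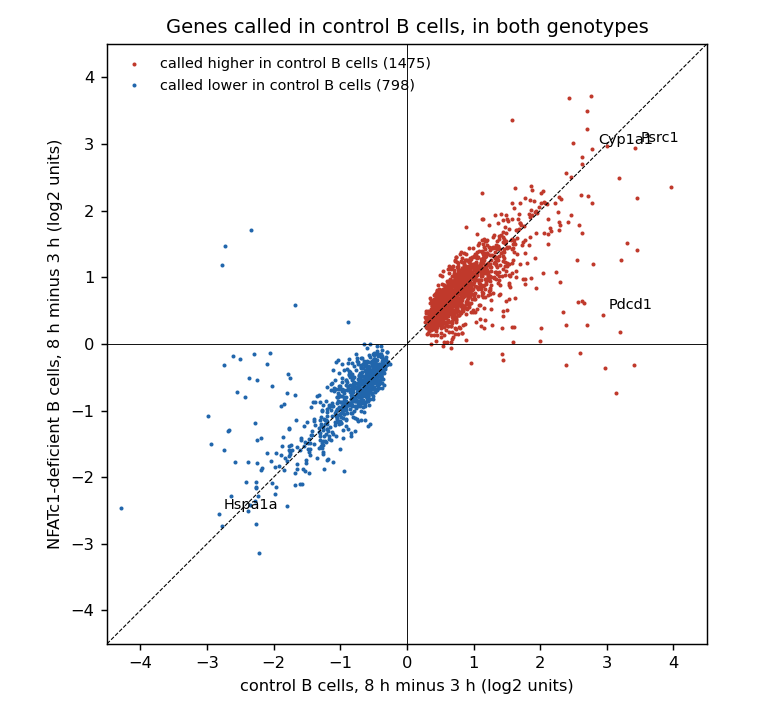
Difference between 8 h and 3 h in NFATc1-deficient B cells (vertical axis) against control B cells (horizontal axis), in log2 units, for the 1475 genes called higher (red) and the 798 called lower (blue) in control cells; the dashed line marks equal change. Most points lie near the line, and Pdcd1 lies below it without a called difference between genotypes.

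The KO arrays also allow the earlier course to be described without the arrays that chose the genes. Of the 798 genes lower in control cells from 3 to 8 h, 589 (73.8%) had a higher mean at 3 h than at 0 h in KO cells, against 44.5% of all genes tested. Their median change from 0 to 3 h was 0.64, and from 8 to 16 h it was -0.18. Of the 1475 higher genes, 307 (20.8%) were higher at 3 h than at 0 h, with a median change of -0.64 from 0 to 3 h and 0.14 from 8 to 16 h. Over all genes the medians were -0.11 and 0.03. In KO cells, most genes that fell in the interval in control cells thus had a higher mean at 3 h than at 0 h, and most that rose had a lower one.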

How the data were processed

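RNA of 24 samples was measured on Affymetrix arrays. The deposited values are log2 of MAS5 signals, computed by the authors per the submitters' processing notes, with no version given. They were used as deposited. No detection calls were used. Of 45101 probe sets, 34958 carried 1 gene symbol. A probe set was kept above the 40th percentile of its array in at least 3 arrays, and the one with the highest mean stood for its gene, which gave 14318 genes.

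The tests are those of limma 3.58.1, run under R 4.3.3 (1 mean per group over 24 arrays, 16 residual and 6.79 prior degrees of freedom, eBayes with trend, Benjamini-Hochberg over all genes). Standard errors are limma's. The 3 arrays per group limit the precision. Tested on simulated data of 14318 genes, the model recovered 26.9% of 1.5-fold, 56.7% of 2-fold and 65.2% of 4-fold changes in this contrast, with 3 unchanged genes called. The simulation changed only 200 genes and drew independent normal errors, whereas 2273 genes were called in the data. Adjusted p depends on the share of changed genes, so these recovery rates do not carry over to the data. "The WT arrays numbered 2" are 4 arrays, 1 at each time.

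The genes compared and the 51 lists (1331 genes, 1193 tested) were chosen with earlier results of these data known. Genes named were drawn from the 25 highest and 25 lowest called genes without overlap. Further sources were up to 6 called members per list and direction, and each list's brightest member. Only part of the genes that fit this rule are described, and the rule did not set the choice among them. Ahr and Mx1 lie outside this rule and were chosen after their values were seen. The cell type markers Cd79a, Ms4a1, Cd3d, Cd3e and Cd4 also lie outside it. Ranks use values raised to the filter level. Promoter letters come from RefSeq (GRCm38.p6), with 11530 of the genes tested matched by symbol. Alternatives covered scaling, low signals, filter, probe set, replicate block, arrays in the fit, variance model, minimum fold and each array left out.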

Additional observations from a re-analysis of the deposited data

How the results depend on the processing

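Against 2273 calls in control cells (1475 higher, 798 lower), scaling arrays to their medians gave 876 (453 and 423), the most variable probe set per gene 1398 (918 and 480), the 6 arrays alone 1386 (829 higher), and a minimum of 1.5-fold 120 (80 and 40), which is a stricter test. Every probe set on its own gave 1213 lower. Leaving out 1 array gave 1425 to 2219 calls, 944 to 1390 higher and 481 to 829 lower. Without the WT arrays numbered 2, an alternative chosen after the data were seen, there were 1449 calls, 891 of them higher. In KO cells, 2750 calls became 1128, 1799 and 164 under median scaling, the most variable probe set and the minimum fold, and 1934 to 2436 with 1 array left out. Before median scaling, array medians were 6.326 to 6.485 (log2) on the 6 compared arrays. On the KO arrays, which enter the same fit, they were 6.21 to 6.977. Other alternatives stayed within 1.5-fold, and the cause of the differences was not tested.

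With the replicate number as a fixed block there were 3327 calls (2128 higher, 1199 lower), and with a random block 3108. All 2273 were among both. Same-numbered control arrays at 3 and 8 h correlated at 0.075, 0.115 and 0.08 in their deviations from the group means, and differently numbered ones at -0.096 to 0.021. Each array correlated best with its own number, and the male-type pattern was found on the 4 WT arrays numbered 2. Arrays of the same number may thus share a source. The reported fit does not use the number, and whether it pairs the samples was not settled. The block ended no call of a named gene.

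Of 92 called genes named in the text, 81 were called in all 6 fits that left out 1 of the compared arrays. Median scaling ended 10 of the 92 calls and the most variable probe set 22, the reversals included. The most variable probe set reversed Adk (-0.56), Ahnak (0.0464), Csrnp1 (0.31) and Arhgap15 (1.93). Signals near the filter level limit what dim genes show.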

Other observations

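Summed linear signals of plasma cell markers were 23832 to 25278 at 3 h and 15214 to 18150 at 8 h. Their brightest member, Irf4, read 14.05, 13.98 and 14.04 at 3 h and 12.91, 13.31 and 12.72 at 8 h on the log2 scale. Irf4 was the 1 of 5 plasma cell genes tested that was lower, and 4 were not called. A linear sum mostly follows its brightest members. Dendritic cell markers summed to 1668 to 2227 at 3 h and 1063 to 1554 at 8 h, with 0 of 8 tested called. Platelet markers summed to 667 to 958 at 3 h and 513 to 963 at 8 h, and NK cell markers to 413 to 760 and 327 to 586. Stromal markers, of which 0 of 6 tested were called, summed to 390 to 442 at 3 h and 525 to 747 at 8 h. Erythroid markers summed to 288 to 497 and 338 to 575. Only 2 of 9 NK cell, 1 of 9 stromal and 1 of 7 erythroid markers lay above the filter level on all 6 arrays.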
